A study of Homo sapiens and Mus musculus with 55 samples.

Results

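Cells labelled Tax-R of 2 human triple-negative breast cancer lines, SUM159PT and MDA-MB-436, were compared with each other by RNA sequencing. The comparison rests on 4 of the 55 libraries of the series, 2 of Tax-R MDA-MB-436 and 2 of Tax-R SUM159PT, chosen by their labels and not by any measured value. The parental cells of each line, 2 libraries each, were set beside them to show which differences between the lines were already there. Control siRNA Tax-R cells and mock cells of a CRISPR experiment, 2 libraries per line each, gave the same comparison in other tables. The labels do not spell out Tax-R and give no drug, dose, time, medium or growth protocol, and nothing in them says that the 2 libraries of a group came from separate cultures, so p-values measure the spread between these libraries, which may be technical. Each line was deposited in its own table, so line and table cannot be told apart. Of the 32933 genes listed in both tables, 15956 had a mean of at least 2 CPM, reads scaled to a library total of 1000000, in at least 1 Tax-R line and were tested.

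Taxanes bind tubulin, stabilise microtubules and arrest cells in mitosis. ABCB1, also called P-glycoprotein, pumps taxanes and many other drugs out of the cell. The series as a whole asks how MYC, a growth-promoting transcription factor, bears on STING. STING (gene STING1, listed as TMEM173) relays the detection of cytosolic DNA by cGAS (gene CGAS, listed as MB21D1) to interferon genes.

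The 4 parental and 4 Tax-R libraries held 9835655 to 13191675 reads, the control siRNA libraries 6519766 to 7149934 and the mock libraries 6974676 to 7387399. In all 8 libraries ESR1, the oestrogen receptor, was at 0.82 to 1.67 CPM, and VIM, which encodes vimentin of mesenchymal cells, was at 99.6 to 136 CPM. Epithelial markers were mixed: EPCAM and CDH1 were at no more than 2.14 and 0.772 CPM, KRT8 was at 111 to 198 CPM and KRT18 at 57 to 75 CPM. The 20 epithelial genes listed, of 24, summed to 354 to 565 CPM. MDA-MB-436 is known as a line without functional RB1, the retinoblastoma protein, but RB1 was at 78.1 to 100 CPM in all 8 libraries and did not separate the lines. In the mock libraries RB1 was low in those labelled SUM159PT, at 3.84 and 2.92 CPM, and not in those labelled MDA-MB-436, at 55.9 and 51.4 CPM. CDKN2A and MTAP, which lie side by side on chromosome 9, were at no more than 0.858 CPM in all 8. Whether the libraries are the lines their labels name is therefore in doubt and was not tested, so every line difference below is one between groups called by their labels. The 2 MDA-MB-436 Tax-R libraries differed by less than sampling noise (chi-square per gene of 0.85). They are shown as 2 libraries, and counted as 1 sample they gave 304 and 432 called genes in place of the 306 and 434 below.

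Sequences before the transcription start are shown for 5 genes on which the comparison turns. ZNF550, ZNF525 and ZNF772 are zinc finger genes of chromosome 19 with similar levels in both parental lines and unlike levels in the Tax-R lines. SULT1E1 and MYBPC1 were at or near 0 in Tax-R MDA-MB-436 and expressed in Tax-R SUM159PT. Each window is the 250 bases before the start, 5′ to 3′ on the strand of the gene, from RefSeq on GRCh38.p14: chr19:57559864-57560113 on the minus strand for ZNF550, chr19:53365455-53365704 on the plus strand for ZNF525, chr19:57477567-57477816 on the minus strand for ZNF772, chr4:69860146-69860395 on the minus strand for SULT1E1 and chr12:101594721-101594970 on the plus strand for MYBPC1. Capitals mark the dinucleotide CG, the site of DNA methylation in human cells.
ZNF550: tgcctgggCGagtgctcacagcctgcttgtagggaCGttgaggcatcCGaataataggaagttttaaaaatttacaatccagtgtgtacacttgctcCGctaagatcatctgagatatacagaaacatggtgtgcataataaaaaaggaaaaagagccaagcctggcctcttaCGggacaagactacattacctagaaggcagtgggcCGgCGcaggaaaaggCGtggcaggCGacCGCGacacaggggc
ZNF525: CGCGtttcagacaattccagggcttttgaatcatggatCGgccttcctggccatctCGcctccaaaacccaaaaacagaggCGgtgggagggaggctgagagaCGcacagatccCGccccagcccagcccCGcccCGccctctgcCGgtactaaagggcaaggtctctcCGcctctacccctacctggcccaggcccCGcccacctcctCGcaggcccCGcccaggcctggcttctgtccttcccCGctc
ZNF772: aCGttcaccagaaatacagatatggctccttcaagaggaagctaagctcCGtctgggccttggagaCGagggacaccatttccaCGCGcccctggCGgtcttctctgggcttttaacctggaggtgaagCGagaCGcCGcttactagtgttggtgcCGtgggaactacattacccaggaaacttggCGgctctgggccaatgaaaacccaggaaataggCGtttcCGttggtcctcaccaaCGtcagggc
SULT1E1: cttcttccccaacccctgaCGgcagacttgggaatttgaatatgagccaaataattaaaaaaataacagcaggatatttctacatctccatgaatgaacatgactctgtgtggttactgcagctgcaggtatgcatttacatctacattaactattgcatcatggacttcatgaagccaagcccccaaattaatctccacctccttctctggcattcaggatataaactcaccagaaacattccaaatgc
MYBPC1: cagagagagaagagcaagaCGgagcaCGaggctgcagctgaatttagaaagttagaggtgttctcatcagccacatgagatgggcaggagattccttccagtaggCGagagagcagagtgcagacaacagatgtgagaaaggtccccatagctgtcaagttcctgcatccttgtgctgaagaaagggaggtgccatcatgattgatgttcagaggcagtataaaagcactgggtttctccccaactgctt
The windows hold 11, 15, 14, 1 and 3 CG in that order. Among 22114 RefSeq windows of this length 93.1% hold at least 1 CG, and the median is 9. Methylation was not measured in these libraries. Only 43.7% of the genes tested had a window, under the 80% needed, so a comparison of CG content between sets of genes is void.

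In the Tax-R cells, 740 genes differed between the lines, 4.64% of those tested: 306 were higher in SUM159PT (1.92%) and 434 were higher in MDA-MB-436 (2.72%). A gene was called when limma's adjusted p was below 0.05 and the fold was at least 2. Differences are log2 of CPM + 0.5, SUM159PT minus MDA-MB-436, ± SE, so that positive values mean higher in SUM159PT. By the adjusted p alone, 2069 genes (13%) were higher in SUM159PT and 2964 (18.6%) in MDA-MB-436, most of them by less than 2-fold. With quantile normalization the calls were 353 and 374, so the share higher in SUM159PT moved from 41.4 to 48.6%.

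The Tax-R lines were nearer to each other than the parental lines were in the number of calls, the spread of differences and the correlation. Parental cells had 1083 calls (6.79%), 358 higher in SUM159PT (2.24%) and 725 higher in MDA-MB-436 (4.54%). The SD of the log2 difference over all genes tested was 0.50 between the Tax-R lines and 0.61 between the parental lines, and 0.58 between each Tax-R line and its own parent. Log2 levels of the Tax-R lines had a Pearson r of 0.97 across genes, against 0.953 for the parental lines and 0.956 and 0.959 for MDA-MB-436 and SUM159PT Tax-R cells with their own parents. In the other tables the order was the reverse: the SD was 0.89 between the control siRNA Tax-R lines and 0.74 between the mock lines, with r of 0.932 and 0.955. Genes are not independent replicates, and the filter on Tax-R levels left out 1480 genes that reached 2 CPM in a parental line only.

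**Figure D1:**
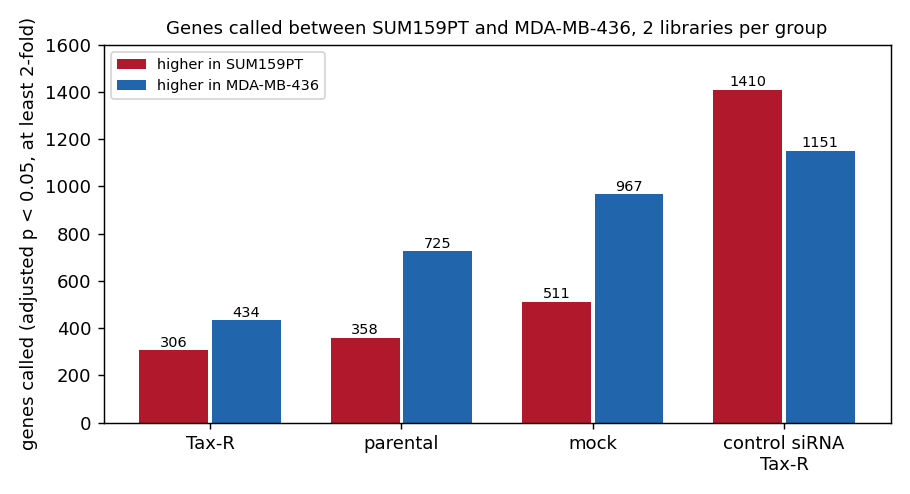
Number of genes called between SUM159PT and MDA-MB-436 (y axis) in the Tax-R, parental, mock and control siRNA Tax-R libraries (x axis), with red bars for genes higher in SUM159PT and blue bars for genes higher in MDA-MB-436. The Tax-R pair has the fewest calls (306 and 434) and the control siRNA Tax-R pair the most (1410 and 1151).

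Of the 740 differences between the Tax-R lines, 354 (47.8%) were also called in the parental lines in the same direction. These were 32.7% of the parental calls. A further 34 were called in both with opposite directions, and 352 in the Tax-R cells alone. For 221 of those 352, the change of the line difference between parental and Tax-R cells was itself called. The test of that change called 961 genes (6.02%), 523 shifted towards SUM159PT (3.28%) and 438 towards MDA-MB-436 (2.75%). In parental cells alone 695 genes were called, and for 403 of them the change was called. The 2 comparisons share no library.

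**Figure D2:**
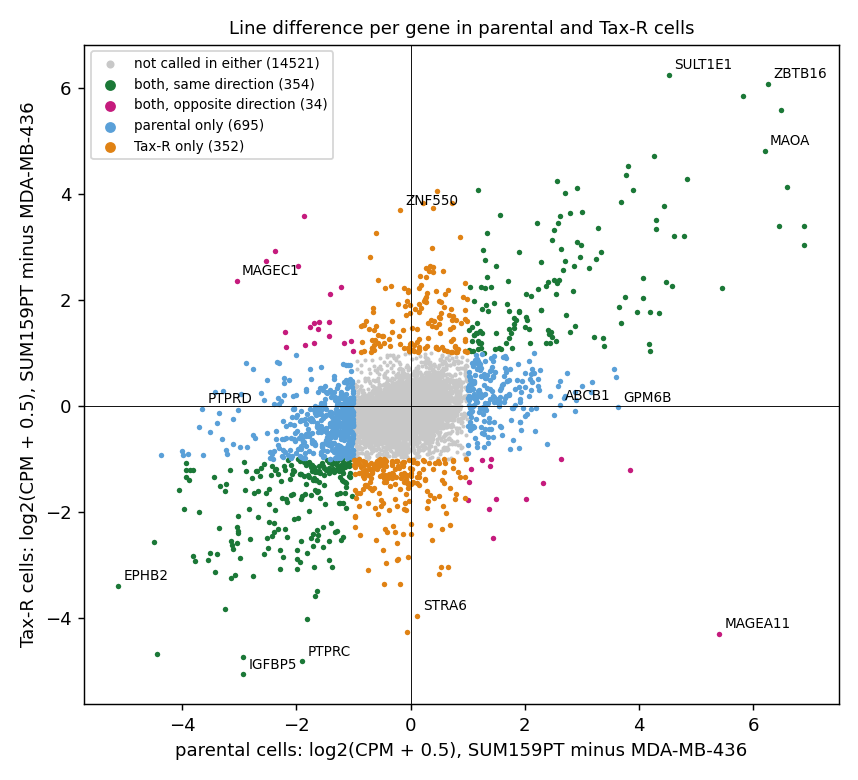
Line difference of each of the 15956 genes tested, log2(CPM + 0.5) of SUM159PT minus MDA-MB-436, in parental (x axis) and Tax-R cells (y axis), coloured by where it was called. Genes such as ZBTB16, MAOA and EPHB2 lie far out on both axes, GPM6B, ABCB1 and PTPRD lie near 0 in Tax-R cells only, and MAGEA11 lies at opposite ends.

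ABCB1 was at nearly 1 level in the Tax-R cells of both lines, from unequal parental levels. It was at 238 and 242 CPM in Tax-R MDA-MB-436 and at 241 and 240 CPM in Tax-R SUM159PT. The ranges overlapped, and the difference was 0.00 ± 0.04 (limma adjusted p = 0.953), with a ratio of SUM159PT to MDA-MB-436 whose exact 95% interval was 0.966 to 1.04. Parental libraries had 5 and 4.8 CPM in MDA-MB-436 and 32.8 and 32.3 CPM in SUM159PT, a difference of 2.61 ± 0.04, and the change of the difference was -2.61 ± 0.06 (limma adjusted p = 3.79e-13). The control siRNA Tax-R cells likewise differed little, with 493 and 478 CPM in MDA-MB-436 and 552 and 584 CPM in SUM159PT (0.23 ± 0.05, limma adjusted p = 6.79e-04). Of the 11 ABC drug efflux transporters tested, ABCG2, another multidrug pump, was the only call. It was at 118 and 116 CPM in Tax-R MDA-MB-436 and 57.6 and 54.2 CPM in Tax-R SUM159PT (-1.06 ± 0.06), with a parental difference of -1.77. None of the 13 tubulins, the targets of taxanes, was called. By adjusted p alone 2 were higher in SUM159PT and 0 in MDA-MB-436, beside 13 and 18.6% of all genes.

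The STING pathway differed little between the Tax-R lines. STING1 was at 16.6 and 17 CPM in MDA-MB-436 and 13.9 and 14.6 CPM in SUM159PT, groups that did not overlap (-0.23 ± 0.08, limma adjusted p = 0.0294, under 2-fold). Its parental difference had the other sign, 0.44 ± 0.08, and the change was -0.67 ± 0.11 (limma adjusted p = 1.41e-04). In control siRNA Tax-R cells the order was the reverse of that in the Tax-R cells, with 3.53 and 1.68 CPM in MDA-MB-436 and 13.6 and 14.8 CPM in SUM159PT (2.31 ± 0.26). CGAS was at 50.2 and 51.1 CPM in Tax-R MDA-MB-436 and 45.4 and 48.5 CPM in Tax-R SUM159PT (-0.11 ± 0.05, limma adjusted p = 0.114). MYC was higher in SUM159PT by less than 2-fold, at 135 and 134 CPM against 108 and 111 CPM (0.29 ± 0.05, limma adjusted p = 3.61e-04). None of 16 STING pathway genes and nucleic acid sensors was called. By adjusted p alone 5 were higher in MDA-MB-436 and 0 in SUM159PT, beside 18.6 and 13% of all genes.

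**Figure D3:**
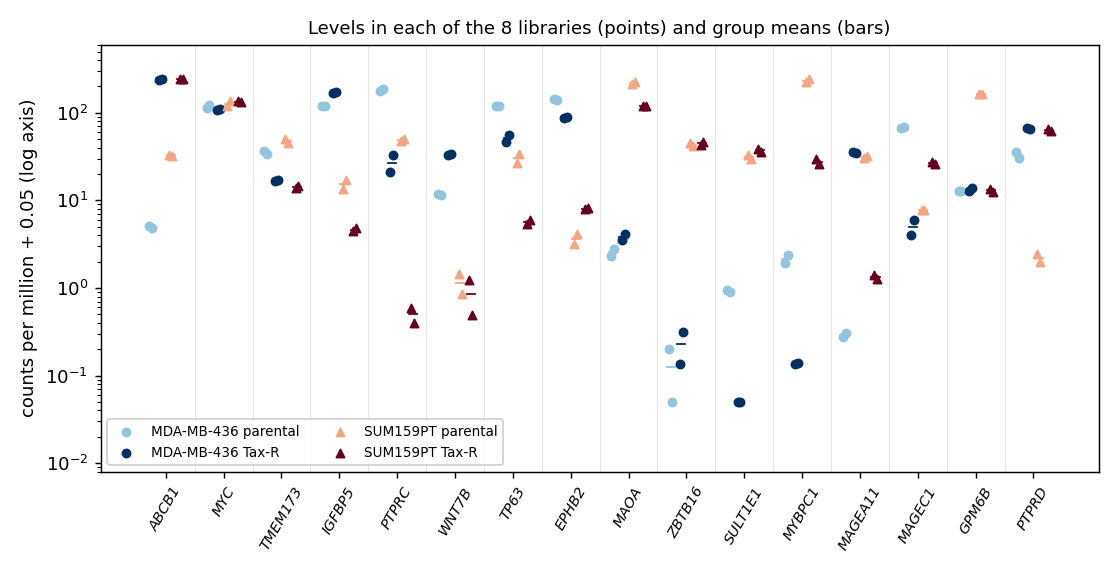
CPM + 0.05 on a log axis (y axis) of 16 genes named in the text (x axis) in each of the 8 libraries, with points for libraries, bars for group means, circles for MDA-MB-436 and triangles for SUM159PT. ABCB1, GPM6B and PTPRD coincide in the Tax-R lines and not in the parental lines, and MAGEA11 is high in parental SUM159PT and in Tax-R MDA-MB-436.

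Interferon-stimulated genes leaned towards MDA-MB-436 in the Tax-R cells. Of 39 tested, 4 were called, all higher in MDA-MB-436, where 2.72% of all genes were. The list's median difference was -0.27, against -0.01 for all genes. By adjusted p alone, 19 members were higher in MDA-MB-436 and 2 in SUM159PT, beside 18.6 and 13% of all genes. MX2, an antiviral GTPase, was at 4.27 and 3.83 CPM in MDA-MB-436 and 0.182 and 0.264 CPM in SUM159PT (-2.65 ± 0.17). OAS1, which senses double-stranded RNA, was at 3.05 and 3.38 CPM against 0.0911 and 0.176 CPM, a ratio of 24.1 with an exact 95% interval of 7.87 to 119. OAS2 (-1.31 ± 0.14) and MX1 (-1.14 ± 0.13) were lower in SUM159PT as well. The parental median was 0.07. The change of the difference was called for 4 members, all shifted towards MDA-MB-436, beside 2.75% of all genes. All 4 genes called between the Tax-R lines were below 10 CPM in every Tax-R library. In the parents MX2 (-1.71) and OAS1 (-1.43) were already called, and OAS2 (-0.45) and MX1 (-0.12) were not. In mock cells all 4 were called lower in SUM159PT: MX2 (-3.53), OAS1 (-3.74), OAS2 (-4.13) and MX1 (-3.01). As a list, the control siRNA cells did not share the lean, with 6 members higher in SUM159PT and 5 in MDA-MB-436, beside 9.17 and 7.48% of all genes. OAS1 (-2.04) and OAS2 (-1.03) were called lower in SUM159PT there, and MX2 (-0.38) and MX1 (-0.16) were not called. Class I antigen presentation had no call among 20 genes, with a median of -0.16. By adjusted p alone 8 members were higher in MDA-MB-436 and 0 in SUM159PT, beside 18.6 and 13% of all genes. In the control siRNA cells 9 were called higher in SUM159PT (9.17% of all genes) and 0 in MDA-MB-436 (7.48%).

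T cell-attracting chemokines were at or near 0 in both Tax-R lines. CCL5 was at no more than 0.356 CPM, CXCL10 at no more than 0.0891 and CXCL11 at no more than 0.178 in the 4 Tax-R libraries, too few reads to compare the lines. In the parents CCL5 was at 4.55 and 4.12 CPM in MDA-MB-436 and 4.17 and 3.66 CPM in SUM159PT. CXCL10 was at 7.81 and 8.66 CPM against 4.17 and 4.17 CPM there, and CXCL11 at 14.3 and 13.6 CPM against 3.15 and 3.36 CPM. Mock MDA-MB-436 had 60.8 and 58.2 CPM of CCL5, 34.7 and 35.5 of CXCL10 and 37.7 and 37.2 of CXCL11. Mock SUM159PT had no more than 1.11 CPM of any of them. CCL20, which attracts cells that carry CCR6, was higher in SUM159PT, at 14.1 and 12.4 CPM against 1.92 and 1.78 CPM in MDA-MB-436 (2.55 ± 0.12). The parental lines differed in CCL20 by 0.33, and the change was 2.22. BIRC3, an NF-kB target that inhibits cell death, had the same pattern, at 54.5 and 58.4 CPM in Tax-R SUM159PT and 13.4 and 14.4 CPM in Tax-R MDA-MB-436 (1.98 ± 0.06, parental 0.50). IL1A, an inflammatory cytokine, was at 22.5 and 21.9 CPM against 10.4 and 10.7 CPM (1.04 ± 0.11) after a parental difference of -0.65. Of 21 cytokines and NF-kB targets, 2 were called higher in SUM159PT and 1 in MDA-MB-436, beside 1.92 and 2.72% of all genes. They were BIRC3, IL1A and TSLP (-1.35 ± 0.26), and the list's median was -0.02. By adjusted p alone 7 were higher in SUM159PT and 9 in MDA-MB-436, beside 13 and 18.6% of all genes. Of the 21 genes, 7 shifted towards SUM159PT and 1 towards MDA-MB-436, where 3.28 and 2.75% of all genes did. CCL20 and BIRC3 were also called higher in SUM159PT in the control siRNA cells (4.05 and 3.21), and IL1A was not called there (0.32).

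Many genes known to be induced by glucocorticoids were called higher in SUM159PT, and none lower, in each of the 4 pairs of groups. Glucocorticoids bind the receptor NR3C1, which then switches on genes with anti-inflammatory and metabolic roles. This list was drawn up after its values were seen, so its count describes these libraries only. Of 26 members 24 were tested, and 10 were called higher in Tax-R SUM159PT and 0 higher in MDA-MB-436, beside 1.92 and 2.72% of all genes. The median difference was 0.87 against -0.01, and 22 of 24 were above 0. The exceptions were ERRFI1 (-0.21) and CRISPLD2 (-0.37). In parental cells 10 were called higher in SUM159PT and 0 lower, beside 2.24 and 4.54% of all genes. The median there was 0.77, and 7 of the 10 were the same genes.

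FKBP5, a chaperone partner that restrains the receptor, was at 229 and 225 CPM in Tax-R SUM159PT and 103 and 111 CPM in Tax-R MDA-MB-436 (1.08 ± 0.04). TSC22D3, known as GILZ, was at 68.7 and 66.4 CPM against 21.5 and 21 CPM (1.64 ± 0.06). PER1, a clock gene, was at 101 and 113 CPM against 21.2 and 24 CPM (2.22 ± 0.07). In each of these the SUM159PT libraries lay above both MDA-MB-436 libraries. ZBTB16, a transcription factor also called PLZF, was at 42.7 and 46.6 CPM in SUM159PT and 0.0871 and 0.267 CPM in MDA-MB-436, a ratio of 252. MAOA, which oxidises amine neurotransmitters, was at 120 and 119 CPM against 3.48 and 4.1 CPM (4.81 ± 0.09), and its parental difference was larger at 6.20. SCNN1A, a sodium channel subunit, was at 48.4 and 50 CPM against 8.53 and 9.8 CPM (2.36 ± 0.08), and the transcription factor KLF9 was at 116 and 113 CPM against 51.5 and 53.7 CPM (1.11 ± 0.04).

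MT2A, a metallothionein, rested on 1 library, with 58.5 and 186 CPM in Tax-R SUM159PT and 38.6 and 35.9 CPM in Tax-R MDA-MB-436. Its difference of 1.48 ± 0.41 was 0.65 without SUM159PT replicate 2, with a limma adjusted p of 0.214, and 2.31 without SUM159PT replicate 1. Without MDA-MB-436 replicate 2 it was 1.42, with a limma adjusted p of 0.0687. TIPARP was at the 2-fold limit and was lost without MDA-MB-436 replicate 1 (0.93) or SUM159PT replicate 1 (0.98). The remaining called member was TFCP2L1 (2.43 ± 0.26). NR3C1 itself was lower in SUM159PT by less than 2-fold, at 152 and 144 CPM against 182 and 190 CPM (-0.33 ± 0.04). In control siRNA Tax-R cells 17 of 22 members with a value were called higher in SUM159PT, beside 9.17% of all genes, and in mock cells 15 of 22, beside 3.31%. FKBP5 was at 487 and 519 CPM against 44.9 and 51.2 CPM in the mock cells. The medium of either line was not given, and its part in these differences was not tested.

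**Figure D4:**
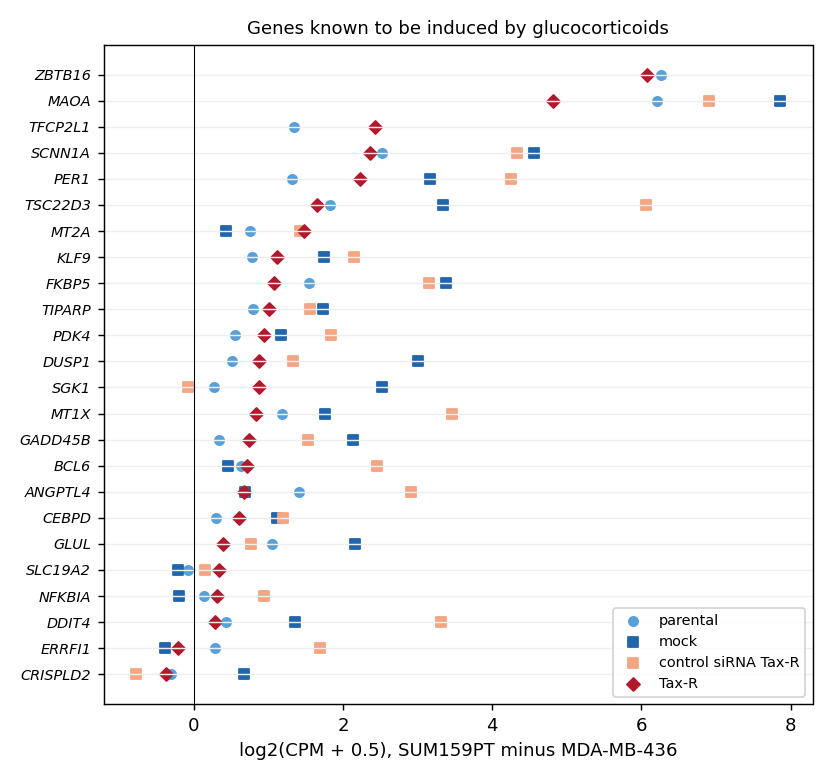
Line difference, log2(CPM + 0.5) of SUM159PT minus MDA-MB-436 (x axis), of the 24 tested genes known to be induced by glucocorticoids (y axis) in parental, mock, control siRNA Tax-R and Tax-R cells. Most markers lie right of 0, with 22 of 24 there in the Tax-R cells and wider gaps in the mock and control siRNA cells (medians 1.74 and 1.77).

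A subset of zinc finger genes was lower in Tax-R MDA-MB-436 than in Tax-R SUM159PT. Most ZNF genes encode DNA-binding repressors, many with a KRAB domain that silences transposable elements, and they stand in clusters on chromosome 19. The family was singled out after its values were seen. Of 378 numbered ZNF genes tested, 36 were higher in SUM159PT and 1, ZNF114, was higher in MDA-MB-436, so that 9.79% were called, beside 4.64% of all genes (1.92% higher in SUM159PT). On chromosome 19, 30 of 164 were higher in SUM159PT and 1 lower (18.9%), and these 30 were most of the 36 genes of any kind higher in SUM159PT on that chromosome. The median difference of the whole family was 0.02, so most members did not differ. In the parental lines 11 were higher in SUM159PT and 7 lower, beside 2.24 and 4.54% of all genes.

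ZNF550 was at 45.3 and 39.2 CPM in parental MDA-MB-436 and 35.6 and 38.1 CPM in parental SUM159PT. In Tax-R cells it was at 0.697 and 0.445 CPM in MDA-MB-436 and 12.8 and 13.6 CPM in SUM159PT (3.68 ± 0.12, change of the difference 3.87). It thus fell in both lines and further in MDA-MB-436. ZNF525 was at 0.697 and 0.712 CPM against 10.8 and 11.2 CPM (3.26 ± 0.11), from parental levels of 27.4 and 27.4 CPM and 17.7 and 18 CPM. ZNF772 was at 3.48 and 3.21 CPM against 15.9 and 15 CPM (2.06 ± 0.10), and ZNF140, on chromosome 12, at 1.92 and 2.05 CPM against 12.8 and 12.8 CPM (2.42 ± 0.10). For each of these 4 genes the Tax-R groups lay far apart, and the parental levels differed by less than 2-fold. Of all 378 family members tested, 46 fell and 7 rose from parental to Tax-R cells in MDA-MB-436, and 14 fell and 6 rose in SUM159PT, with median changes of -0.15 and -0.08. Over all genes, 6.49% were called in MDA-MB-436, 4% falling and 2.48% rising, and 6.52% in SUM159PT, 3.58% falling and 2.95% rising. The 36 genes themselves were chosen for their Tax-R difference, so their falls (28 in MDA-MB-436 and 7 in SUM159PT) are a description only.

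The control siRNA Tax-R cells did not show this difference. Of the 30 of the 36 genes with a value there, 1 was called higher in SUM159PT and 2 lower, with a median of -0.25. The genes were low in both lines: the median level of these 30 was 0.743 CPM in control siRNA MDA-MB-436 and 0.5 CPM in control siRNA SUM159PT, against 2.93 and 12 CPM in the Tax-R cells and 14.3 and 17.8 CPM in the parental cells. At levels near the 0.5 CPM added before the log, a 2-fold difference could hardly be called. The whole family was also lower in the other tables. Its medians in MDA-MB-436 and SUM159PT were 8.48 and 8.03 CPM in control siRNA cells and 11.6 and 11 CPM in mock cells. In the parental cells they were 28.2 and 28.3 CPM. ZNF550 was at 0.307 and 0.559 CPM and at 0.42 and 0.151 CPM in the control siRNA cells of MDA-MB-436 and SUM159PT. ZNF genes resemble each other in sequence, and the labels do not say how reads that match several genes were counted. Without MDA-MB-436 Tax-R replicate 2, 32 were called higher in SUM159PT.

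**Figure D5:**
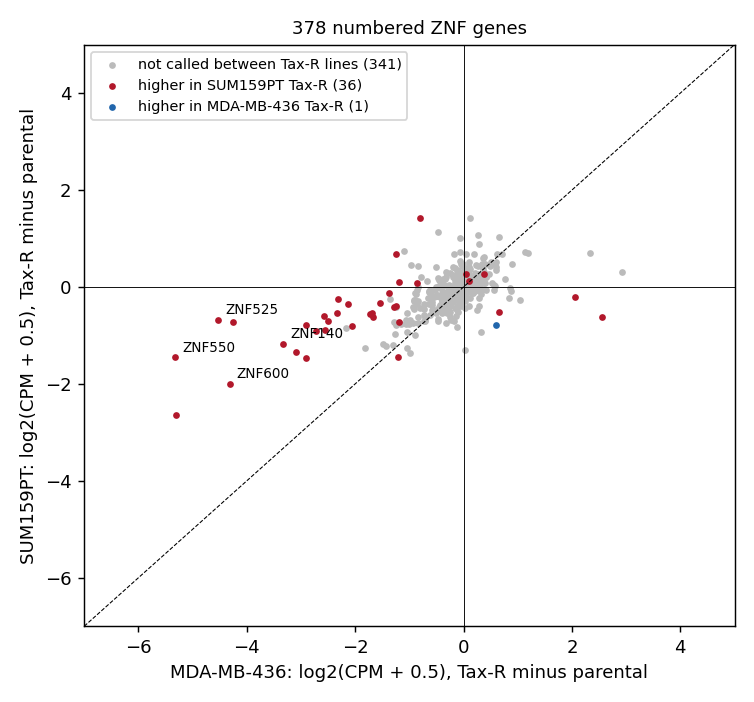
Change from parental to Tax-R cells, log2(CPM + 0.5), of the 378 numbered ZNF genes tested, in MDA-MB-436 (x axis) and SUM159PT (y axis), with the 36 genes higher in Tax-R SUM159PT in red and the 1 higher in Tax-R MDA-MB-436 in blue. Most red points lie left of 0 and above the dashed line of equal change, as for ZNF550 and ZNF525.

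SULT1E1, SULT1B1 and MYBPC1 were at or near 0 in Tax-R MDA-MB-436, with at most 3 reads over both libraries, and above 10 CPM in Tax-R SUM159PT. SULT1E1, which inactivates oestrogens by sulfation, was at 0 in both Tax-R MDA-MB-436 libraries and at 38.7 and 36.1 CPM in Tax-R SUM159PT, at least 283-fold higher when 3 reads are allowed for the group at 0. SULT1B1, a related sulfotransferase, was at 33.7 and 32.6 CPM against 0.0871 and 0.0891 CPM, a ratio of 377 (exact 95% interval 104 to 3120). MYBPC1, a myosin-binding protein of skeletal muscle, was at 29.5 and 25.7 CPM against 0.0871 and 0.0891 CPM, a ratio of 313 (86.3 to 2590). All 3 were called in the same direction in the parental lines. MYBPC1 was also absent from MDA-MB-436 in the control siRNA (0 and 0.14 CPM against 210 and 224 CPM) and mock libraries (0.143 and 0.135 CPM against 180 and 185 CPM). Intervals and floors cover counting error only.

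Other genes were at or near 0 in the Tax-R cells and not in the parental cells. With at least 10 CPM in the parent and at most 3 reads over both Tax-R libraries, there were 51 genes in MDA-MB-436 and 48 in SUM159PT. The 14 shared genes were 27.5 and 29.2% of these lists, and 82 of the 85 genes in either list were under 2 CPM in the Tax-R cells of both lines. Of the 51 genes 27, and of the 48 genes 19, had at least 10 CPM in the parent of the other line. The 82 are therefore not all losses in both lines. The genes of both lists were named after their values were seen, and most are untested because of the filter. COL11A1, a fibrillar collagen, was at 215 and 214 CPM in parental MDA-MB-436 and 301 and 303 CPM in parental SUM159PT, and at 0 and 0 CPM and 0.273 and 0.264 CPM in the Tax-R cells. BACE2, a protease, was at 64.1 and 65.9 CPM and 33.4 and 30.8 CPM in the parents and at no more than 0.0911 CPM in the Tax-R cells. The scavenger receptor OLR1 was at 0 in all 4 Tax-R libraries, from 56.2 and 59.8 CPM and 21.8 and 23.1 CPM. NID1, a basement membrane protein, was an exception, at 0.0871 and 0 CPM in Tax-R MDA-MB-436 but 6.47 and 8.01 CPM in Tax-R SUM159PT (3.83 ± 0.12), from parental levels of 72.5 and 70 CPM and 116 and 121 CPM.

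The largest calls towards MDA-MB-436 were IGFBP5, PTPRC, WNT7B, SUCNR1 and MAGEA11. IGFBP5, a secreted binder of insulin-like growth factors, was at 167 and 174 CPM in Tax-R MDA-MB-436 and 4.37 and 4.84 CPM in Tax-R SUM159PT, 37-fold (-5.07 ± 0.08). Its parental difference was -2.93, and IGFBP5 fell in SUM159PT between parental and Tax-R cells (-1.62). SUCNR1, the succinate receptor, was at 33.6 and 36.8 CPM against 0.729 and 1.06 CPM (-4.69 ± 0.21), almost as in the parental lines (-4.45). PTPRC, the leukocyte phosphatase CD45, was at 21.1 and 32.6 CPM against 0.547 and 0.352 CPM (-4.82 ± 0.15), and parental cells had 176 and 188 CPM against 47.3 and 49.8 CPM. The other myeloid markers did not go with it: without PTPRC, their summed level was 5.22 to 5.25 CPM in Tax-R MDA-MB-436 and 3.17 to 3.83 CPM in Tax-R SUM159PT, with CD68 at no more than 0.267 CPM. None of 10 lymphocyte markers was tested, and their sum was 3.83 CPM in both Tax-R MDA-MB-436 libraries and 1.18 to 1.5 CPM in Tax-R SUM159PT.

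Of 15 Wnt pathway genes tested, 2 were higher in MDA-MB-436 and 1 in SUM159PT, beside 2.72 and 1.92% of all genes, with a median of -0.44, and 9 were higher in MDA-MB-436 by adjusted p alone, beside 18.6% of all genes. The ligand WNT7B was at 32.7 and 33.9 CPM in Tax-R MDA-MB-436 and 1.18 and 0.44 CPM in Tax-R SUM159PT (-4.75 ± 0.23), and rose in MDA-MB-436 from 11.7 and 11.4 CPM. The receptor FZD8 was lower in SUM159PT too (-1.26 ± 0.19). LEF1, a transcription factor of the pathway, was higher in SUM159PT at 16 and 16.2 CPM against 3.48 and 3.65 CPM (2.03 ± 0.15). Its parental difference was 4.07, so the gap narrowed (-2.04). In the parental lines 8 Wnt genes had been higher in MDA-MB-436 and 1 in SUM159PT, beside 4.54 and 2.24% of all genes, with a median of -1.07.

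Among 21 receptor tyrosine kinases, 2 were higher in SUM159PT and 3 in MDA-MB-436, beside 1.92 and 2.72% of all genes, and 4 of these 5 differed in the same direction in parental cells. EPHB2, an ephrin receptor, was at 87.9 and 90 CPM in Tax-R MDA-MB-436 and 7.83 and 8.18 CPM in Tax-R SUM159PT (-3.39 ± 0.09), a smaller gap than in the parents (-5.11). EPHB6 was at 94 and 96.4 CPM against 9.84 and 10 CPM (-3.20 ± 0.09, parental -3.08). PDGFRA, a receptor of platelet-derived growth factor, was at 65.1 and 66.8 CPM against 8.84 and 6.51 CPM (-3.04 ± 0.10, parental -1.37). ROR1, a receptor of Wnt5a, was higher in SUM159PT, at 82.3 and 83.6 CPM against 8.79 and 8.64 CPM (3.18 ± 0.08, parental 0.86). Of the 20 ligands of such receptors, 2 were called, both higher in MDA-MB-436 (2.72% of all genes): FGF5 (-2.27 ± 0.10, parental -0.31) and VEGFC (-1.07 ± 0.08, parental -2.92). In the TGF-beta, activin and BMP list, 3 of 19 were called, all higher in MDA-MB-436, beside the same 2.72%. The activin antagonist FST differed by -2.91 ± 0.19, BMP4 by -1.75 ± 0.13 and the stress-induced GDF15 by -1.31 ± 0.24. The sign of BMP4 had been the other way in the parents (0.77).

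Among 9 basal genes tested, 3 were called, all higher in MDA-MB-436 (2.72% of all genes). All 3 were called so in the parental lines, where 5 were (4.54% of all genes). The list's median difference was -0.25, against -1.31 in the parental lines. Of its members 4 shifted towards SUM159PT and 1 towards MDA-MB-436, beside 3.28 and 2.75% of all genes. TP63, the transcription factor of basal epithelium, was at 46.9 and 56.3 CPM in Tax-R MDA-MB-436 and 5.28 and 5.98 CPM in Tax-R SUM159PT (-3.08 ± 0.10, parental -1.99). KRT15 was at 20.8 and 20.8 CPM against 6.19 and 6.86 CPM (-1.60 ± 0.13), and COL17A1, a hemidesmosome collagen, at 17.2 and 16.9 CPM against 6.83 and 7.83 CPM (-1.17 ± 0.13). Both gaps had narrowed from -3.26 and -2.61. KRT14, KRT16 and KRT23 were at 0 in all 4 Tax-R libraries. Of 29 lineage transcription factors 4 were called, all higher in MDA-MB-436 (2.72% of all genes), with a median of -0.14 against -0.31 in the parents. FOXA1, 1 of the 4 (-1.14), was at -0.90 without SUM159PT Tax-R replicate 1, under 2-fold. The list was led by SOX9 at 41.9 and 45.4 CPM against 7.92 and 8.62 CPM (-2.33 ± 0.08, parental -2.19) and FOXF1 (-1.86 ± 0.11). ELF3, an epithelial factor, was at 9.06 and 10.6 CPM against 0.273 and 0.176 CPM (-3.83 ± 0.14), while the tight junction gene CLDN1 was at 17.4 and 18.2 CPM in SUM159PT and 3.4 and 3.92 CPM in MDA-MB-436 (2.14 ± 0.09). The 20 mesenchymal genes tested gave 0 calls. By adjusted p alone 6 were higher in SUM159PT and 4 in MDA-MB-436, beside 13 and 18.6% of all genes.

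Of 13 cadherins and cell adhesion genes tested, 5 were higher in SUM159PT and 1 in MDA-MB-436, beside 1.92 and 2.72% of all genes. CADM3 and PCDH9 were at 0 in both Tax-R MDA-MB-436 libraries and at 6.1 and 7.22 CPM and 6.74 and 6.42 CPM in Tax-R SUM159PT, at least 50.4 and 49.8-fold higher. PCDH9 had been at 46.8 and 43.8 CPM in parental MDA-MB-436, whereas CADM3 was at 0.227 and 0.429 CPM there. NRCAM was at 219 and 219 CPM against 53 and 62.8 CPM (1.91 ± 0.07). NCAM1 was at 27.6 and 28.5 CPM against 8.62 and 9.89 CPM (1.55 ± 0.10), a reversal of its parental difference (-1.69). Among 19 collagens, 4 were higher in MDA-MB-436 and 0 in SUM159PT, beside 2.72 and 1.92% of all genes, led by COL7A1, the anchoring fibril collagen, at 94.9 and 92.5 CPM against 19.8 and 26.5 CPM (-2.01 ± 0.09, parental -3.71). MAP2, a microtubule-associated protein of neurons, was at 98.7 and 98.4 CPM in SUM159PT and 5.75 and 8.1 CPM in MDA-MB-436 (3.76 ± 0.11, parental 4.43), and MAP7 was lower in SUM159PT (-1.68 ± 0.14).

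Drug metabolism and redox enzymes had 5 calls among 20 genes, all higher in MDA-MB-436, beside 2.72% of all genes. In the control siRNA cells 4 were called in each direction, beside 9.17% of all genes higher in SUM159PT and 7.48% higher in MDA-MB-436. ALDH3A1, 1 of the 5 (-1.48), was at -0.91 without SUM159PT Tax-R replicate 2, under 2-fold. ALDH1L1, a folate enzyme, was at 4.96 and 5.34 CPM in Tax-R MDA-MB-436 and 0.364 and 0.176 CPM in Tax-R SUM159PT (-2.89 ± 0.23), and was below 1.2 CPM in all parental libraries. AKR1B10, an aldo-keto reductase, differed by -2.53 ± 0.20 (parental -1.22). CYP1A1, a target of the aryl hydrocarbon receptor, differed by -1.27 ± 0.15, close to its parental difference (-1.06). In the BCL2 family 1 of 12 was called in each direction, beside 1.92% of all genes higher in SUM159PT and 2.72% higher in MDA-MB-436. BMF was at 29.5 and 41.1 CPM in MDA-MB-436 and 6.92 and 6.16 CPM in SUM159PT (-2.33 ± 0.12), and HRK at 1.65 and 1.6 CPM against 9.66 and 8.36 CPM (2.16 ± 0.21). Both encode activators of cell death, and neither was called between the parents. In the control siRNA cells both were called in the opposite direction (2.46 for BMF and -1.49 for HRK). CA9, a carbonic anhydrase induced by hypoxia, was at 28.2 and 31.7 CPM against 9.29 and 10.4 CPM (-1.56 ± 0.09), the only call of 27 glycolysis and hypoxia genes, and had the opposite sign in the control siRNA cells (3.82).

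Cholesterol and fatty acid synthesis genes were slightly higher in SUM159PT. Of 21 tested, 20 were higher by adjusted p alone, beside 13% of all genes, with a median of 0.38 and a parental median of 0.47. INSIG1, which retains the SREBP activator in the endoplasmic reticulum, was the only one called, at 74.6 and 74.3 CPM against 28.1 and 37.1 CPM (1.19 ± 0.08, and 0.99 without MDA-MB-436 Tax-R replicate 1, just under 2-fold). In the control siRNA cells 13 were called higher in SUM159PT and 0 lower, beside 9.17 and 7.48% of all genes. MYC and MYC-activated genes gave 0 calls among 29. By adjusted p alone 14 were higher in SUM159PT and 0 lower, beside 13 and 18.6% of all genes. The median was 0.12, and all 29 differences were above 0. That direction did not hold in the control siRNA cells, where 14 were called higher in MDA-MB-436 and 1 in SUM159PT, beside 7.48 and 9.17% of all genes.

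Cancer-testis antigens, genes of the germ line that many tumours switch on, include 2 genes whose line difference reversed. MAGEA11 was at 0.227 and 0.257 CPM in parental MDA-MB-436 and 30.2 and 31.7 CPM in parental SUM159PT. In Tax-R cells it was at 35.5 and 34.3 CPM in MDA-MB-436 and 1.37 and 1.23 CPM in SUM159PT (-4.30 ± 0.13, change -9.71 ± 0.19). MAGEC1 moved the other way, from 66.4 and 68.3 CPM against 7.7 and 7.73 CPM to 4.01 and 5.88 CPM against 27.7 and 26.1 CPM (2.35 ± 0.12, change 5.4 ± 0.18). The control siRNA cells had the Tax-R direction for MAGEA11 (-3.94) and the parental direction for MAGEC1 (-3.11). MAGEA1 was higher in Tax-R MDA-MB-436 (-3.04 ± 0.16) and XAGE2 in Tax-R SUM159PT (2.40 ± 0.21), and 27 of the 31 cancer-testis genes tested were not called. MAGE genes are near copies of each other, so reads could be split between them.

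Some parental differences were not called between the Tax-R lines. GPM6B, a membrane glycoprotein of neurons and glia, was at 12.8 and 12.7 CPM in parental MDA-MB-436 and 163 and 165 CPM in parental SUM159PT. In Tax-R cells it was at 12.7 and 13.8 CPM and 13.6 and 12.3 CPM, ranges that overlapped (-0.03 ± 0.07, limma adjusted p = 0.766). PTPRD, a receptor phosphatase, was at 36.1 and 30.1 CPM against 2.41 and 1.93 CPM in the parents and at 67.1 and 65.5 CPM against 65.3 and 62 CPM in Tax-R cells (-0.06 ± 0.10, limma adjusted p = 0.686). POSTN, a matrix protein, went from -2.88 to 0.80 ± 0.11, under 2-fold. In the control siRNA Tax-R cells PTPRD (-2.16) and POSTN (-2.63) were called in the parental direction, and GPM6B was not called (-0.17). STRA6, a receptor for retinol-binding protein, showed the opposite course. It was at 24.1 and 20.8 CPM and 26.1 and 22.9 CPM in the parents, and at 16 and 19.1 CPM in Tax-R MDA-MB-436 and 0.911 and 0.44 CPM in Tax-R SUM159PT (-3.96 ± 0.16). MIR99AHG, a non-coding host gene of microRNAs, was at 13.3 and 11.8 CPM in Tax-R MDA-MB-436 alone, with no more than 0.943 CPM in the other 6 libraries (-4.27 ± 0.23).

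Growth and genome maintenance genes, HOX genes and mitochondrially encoded transcripts gave no calls between the Tax-R lines. Of all genes, 4.64% were called. At that share few calls would fall in lists of 13 to 26 genes. There were 0 among 24 homologous recombination and Fanconi genes, 26 replication genes, 26 mitosis genes, 21 p53 targets, 17 G1 genes, 15 HOX genes and 13 mitochondrially encoded transcripts. By limma's adjusted p alone 2, 1, 0, 5, 2, 3 and 0 of these were higher in SUM159PT, beside 13% of all genes. In MDA-MB-436 6, 1, 5, 5, 6, 3 and 0 were higher, beside 18.6%.

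The control siRNA Tax-R cells, fitted alone, had 2561 calls among 15381 genes (16.7%), 9.17% of genes higher in SUM159PT and 7.48% higher in MDA-MB-436. Of the 693 Tax-R calls with a value there, 271 (39.1%) were called in the same direction, which is 10.6% of the control siRNA calls, and 69 (9.96%) in the opposite direction. The differences had a Pearson r of 0.2 across genes. In mock cells 1478 of 15418 genes were called (9.59%), 3.31% higher in SUM159PT and 6.27% higher in MDA-MB-436. Of 1011 parental calls, 645 (63.8%) were called in the same direction in mock cells (43.6% of the mock calls) and 7 in the opposite, with an r of 0.69. IGFBP5 (-2.77), EPHB2 (-3.66), SOX9 (-3.88), ABCG2 (-2.44) and MAOA (6.90) had the same direction in the control siRNA cells as in the Tax-R cells. PTPRC (0.57), PDGFRA (0.90), TP63 (-0.71) and ELF3 (-0.27) were among the Tax-R calls not called there. BMF (2.46), CA9 (3.82), HRK (-1.49), STMN3 (1.43) and TSLP (1.21) were among those called in the opposite direction. The tables differ in depth, and the labels do not say how reads that match several genes were counted in each. The part of either in the lower overlap was not tested.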

How the data were processed

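Per the labels, a Maxwell RSC simplyRNA kit was used for RNA and Illumina instruments for sequencing. The authors deposited gene read counts divided by 1 factor per library, a signal normalized within each table. DESeq2, HISAT2, StringTie and featureCounts appear, with no version, in the submitters' processing notes. No source used here gives the build. In every library 100% of values came out whole, within 0.05, when divided by the value of 1 read, so whole reads were recovered and scaled to CPM, which takes out each table's own factors. Tables were joined by symbol. Depths are in the report, and a count of 0 allows up to 3 reads over a group.

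Groups came from the titles. Genes with a mean of at least 2 CPM in either Tax-R line were fitted by limma-trend (limma 3.58.1, R 4.3.3) on log2(CPM + 0.5) over 8 libraries with 4 group means, two-sided, with Benjamini-Hochberg adjustment over all genes tested. The change of the line difference was tested as a contrast. In simulated data with 200 genes changed 2-fold, 94.5% passed the adjusted p and 45.5% were called at 2-fold or more, with 7 false by adjusted p and 0 called. Of genes changed 4-fold, 100% were called. A true 2-fold change lies at the 2-fold limit itself. The simulation gave every gene the same relative spread and, before the change, 1 mean in all groups. The real replicate pairs varied in spread, so these rates describe the simulated data only. Alternatives used edgeR 4.0.16 and DESeq2 1.42.0 on recovered reads, other scalings, filters and thresholds, and each library left out. Named genes are STING1, CGAS, MYC, ABCB1 and 3 chemokines, per list, the 4 or fewer members with the widest called difference, the 5 highest and 5 lowest called genes with at least 10 CPM, and the 5 largest changes of each kind. Members and lists were chosen with earlier results of these data known. The mock comparison, the glucocorticoid and ZNF lists and the protein-coding filter were chosen after the data were seen. Some genes with results are not reported here.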

Additional observations from a re-analysis of the deposited data

Results flagged for a closer look

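For 58 of the genes named by the rule, the line difference itself differed between parental and Tax-R cells by at least 2-fold with limma's adjusted p below 0.05. The rule picks genes with large changes, so their number is a description. The values are the changes of the log2 difference, SUM159PT minus MDA-MB-436, from parental to Tax-R cells.

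Among the cancer-testis antigens and other reversals, the changes were MAGEA11 (-9.71), MAGEA1 (-3.7), XAGE2 (-1.67), MAGEC1 (5.4), FAM9A (5.3), SLC1A2 (5.45) and RP11-774D14.1 (5.25). Zinc finger genes shifted towards SUM159PT, with ZNF525 (3.86) and ZNF550 (3.87). The shifts of immune and inflammatory genes were PTPRC (-2.93), OAS1 (-1.13), MX1 (-1.01), TSLP (-1.47), IL1A (1.69), BIRC3 (1.48) and CCL20 (2.22). Those of transport, metabolic and stress genes were ABCB1 (-2.61), STRA6 (-4.09), ALDH1L1 (-2.67), CA9 (-2.25), ALDH3A1 (-1.44), AKR1B10 (-1.31), MAOA (-1.39) and SULT1E1 (1.72).

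Growth factor and signalling genes changed by IGFBP5 (-2.13), BMP4 (-2.53), GDF15 (1.13), LEF1 (-2.04), WNT7B (-1.81), FGF5 (-1.96), VEGFC (1.85), PDGFRA (-1.67), EPHB2 (1.72), ROR1 (2.31) and PTPRD (3.59). Adhesion, matrix and protease genes changed by GPM6B (-3.67), COL3A1 (-1.6), DCN (-1.59), COL7A1 (1.7), COL17A1 (1.44), POSTN (3.67), ITGA10 (1.04), MMP1 (2.86), MMP3 (2.99), NCAM1 (3.24), PCDH9 (3.6), FAT2 (3.56), DSG3 (3.69) and CLDN1 (2.18). The remaining genes changed by MAP7 (-2.03), STMN3 (2.08), TP63 (-1.1), KRT15 (1.65), BMF (-1.89), HRK (1.71), CBX7 (-1.4), SERPINB4 (-2.91) and MIR99AHG (-4.22). By sign, 29 of these moved towards SUM159PT and 29 towards MDA-MB-436.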

How the results depend on the processing

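No named gene changed direction under an alternative run where it was called in that run or in the main one. Sign changes of genes called in neither were not counted. The line with more calls did change. It was SUM159PT in place of MDA-MB-436 for the Tax-R cells at 4-fold. By adjusted p alone it was MDA-MB-436 in place of SUM159PT for the changes of the line difference and the control siRNA cells. Of 183 named genes with a test, 129 were called, 64 of them under every setting, and 49 lost the call only at 4-fold or with a pseudocount of 2. For the Tax-R comparison (306 genes higher in SUM159PT, 434 in MDA-MB-436), a pseudocount of 2 gave 214 and 244, the adjusted p alone 2069 and 2964, a 4-fold limit 112 and 104, edgeR 332 and 529 and DESeq2 306 and 448. Differences called in both parental and Tax-R cells (354) numbered 228, 2774 and 100 under the first 3 of these. Parental calls were 722 and 1590 with no filter, 4470 and 4801 by adjusted p alone and 126 and 170 at 4-fold. Changes of the line difference were 1237 and 827, 3197 and 3304, and 114 and 105 under those settings. The control siRNA cells gave 4383 and 5108 by adjusted p alone, 341 and 265 at 4-fold, 2219 for SUM159PT with no filter, and for MDA-MB-436 746 with a pseudocount of 2 and 671 with protein-coding genes only. The mock cells gave 3468 and 3986, and 155 and 267. The 2 thresholds move counts by their construction, and the cause of the other moves was not tested.

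With each library left out in turn, Tax-R calls were 295 to 318 and 431 to 496, parental 353 to 377 and 705 to 785, changes 504 to 566 and 428 to 487, shared differences 348 to 374, control siRNA 1371 to 1448 and 1130 to 1179, and mock 461 to 494 and 841 to 1038. Where this left 1 library in a group, it was assumed to vary like the others. Same-numbered libraries did not deviate together (correlations -0.0653 to 0.0837 over 6 pairs of groups), and the replicate block gave 306 and 434. Depth limits genes near 0: under 2 CPM, 16977 genes were not tested.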
